A study of Mus musculus with 12 samples.

Results

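Ly6c2, Chil3, F13a1, Vcan, Plac8, Nr4a1, Ace, Csf1r and Treml4, 9 genes by which blood monocytes and the macrophages they give rise to are recognised, were followed in RNA of the immune cell fraction of mouse liver. They were chosen by name among the 40840 genes listed for each of 12 libraries, and all 9 were found. The libraries came from 4 groups of 3 mice: wild type mice (C57BL/6 in the labels and C57BL/6J in the study's methods) on normal chow diet (WT-NCD), wild type mice on high-fat diet (WT-HFD), and mice of the strain B6.129S4(D2)-Casp4tm1Yuan/J, deficient for caspase-11, on either diet (Casp11-/- NCD and Casp11-/- HFD). Male mice entered at 8 to 10 weeks of age and were fed for 12 weeks. The mutation is carried in the germline, so every cell of the animal has it, and whether the wild type mice were littermates is not given in the sources used here, so genotype and strain background cannot be told apart. The cells were separated from hepatocytes on Percoll and sequenced in bulk after red cell lysis, with no sort for monocytes. A lower value in bulk RNA can therefore come from fewer cells of a type or from less RNA per cell, and these cannot be told apart.

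Monocytes leave the bone marrow as classical, Ly6C-high cells that enter inflamed tissue and can become macrophages or dendritic cells. Some mature in the blood into nonclassical, Ly6C-low cells, which patrol the vessel wall and need the nuclear receptor NR4A1. Both carry the receptor for colony stimulating factor 1, encoded by Csf1r. In the liver, resident Kupffer cells fill the macrophage niche, and monocytes are recruited when that niche is damaged or emptied, as happens in fatty liver disease.

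The values are TPM, a transcript's share of each library scaled to a fixed total, which corrects for gene length, and none lay below a floor of 1.01 TPM. WT-NCD replicate 3 stood apart from every other library. In it 39677 genes exceeded the floor, where the others had 12940 to 18775. Its top value was 1635 TPM, where theirs reached at least 153305, and its correlation with the other 11 on log2(TPM + 1) ran from -0.27 to -0.07, where those 11 correlated with each other at 0.85 to 0.99. Fits were therefore made with all 12 libraries and without this one, and ratios, correlations and medians describe the other 11. In the values of Casp11-/- HFD 2 the column is headed C1-HFD-M2, where the sample's title has C11-HFD-M2, and the title was followed. Ptprc, the pan-leukocyte phosphatase CD45, lay between 84.6 and 523 TPM in the 11 libraries and at 2.27 TPM in WT-NCD 3, while albumin (Alb) lay between 4445 and 18318 TPM in the 11, so hepatocyte RNA was present throughout. Casp4, the gene for caspase-11, stood at 12.1, 15.6 and 8.94 TPM in WT-NCD, 7.09, 5.60 and 11.4 in WT-HFD, 4.93, 2.56 and 15.2 in Casp11-/- NCD and 2.78, 8.68 and 4.73 in Casp11-/- HFD. Values of the 2 genotypes overlapped on both diets, and Casp4 was not called between them (adjusted p in limma 0.553 on NCD and 1.0 on HFD with 12 libraries, and 1.0 on both diets without WT-NCD 3). Exons cannot be told apart in values given per gene, so the deletion was not checked here, and "Casp11-/-" names the label of a library throughout.

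The promoters of 5 of the 9 genes are shown. These are classical genes whose levels moved together over the libraries (Ly6c2 with Plac8, Chil3 with F13a1), and Nr4a1. Ace and Treml4 also moved together (Pearson r 0.90), and their promoters were searched but are not shown. Each runs from 250 bases before to 50 bases after a transcription start in RefSeq (GRCm38.p6), 5′ to 3′ on the strand of the gene, using the first entry listed for it. Ly6c2 lies at chr15:75111922-75112221, Plac8 at chr5:100572156-100572455, Chil3 at chr3:106167515-106167814 and F13a1 at chr13:37050195-37050494, these 4 on the minus strand, and Nr4a1 at chr15:101266596-101266895 on the plus strand. Capitals mark matches, on either strand, to the core that PU.1 prefers, written GAGGAA, to the RUNX core, written TGTGGT, to the core of a cyclic AMP response element, written TGACG, and to a TATA box, written TATAAA. A C/EBP string, TTNNGCAA, was searched as well.
Ly6c2: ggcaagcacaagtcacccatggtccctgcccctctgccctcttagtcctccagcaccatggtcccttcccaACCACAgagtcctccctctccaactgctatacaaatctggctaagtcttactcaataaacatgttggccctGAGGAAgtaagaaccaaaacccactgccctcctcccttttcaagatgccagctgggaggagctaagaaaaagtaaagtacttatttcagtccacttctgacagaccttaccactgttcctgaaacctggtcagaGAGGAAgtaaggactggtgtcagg
Plac8: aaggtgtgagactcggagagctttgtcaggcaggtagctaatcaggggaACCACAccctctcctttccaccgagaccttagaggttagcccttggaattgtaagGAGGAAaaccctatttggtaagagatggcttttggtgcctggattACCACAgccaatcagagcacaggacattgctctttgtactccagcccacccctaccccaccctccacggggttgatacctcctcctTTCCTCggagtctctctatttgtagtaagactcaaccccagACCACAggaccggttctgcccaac
Chil3: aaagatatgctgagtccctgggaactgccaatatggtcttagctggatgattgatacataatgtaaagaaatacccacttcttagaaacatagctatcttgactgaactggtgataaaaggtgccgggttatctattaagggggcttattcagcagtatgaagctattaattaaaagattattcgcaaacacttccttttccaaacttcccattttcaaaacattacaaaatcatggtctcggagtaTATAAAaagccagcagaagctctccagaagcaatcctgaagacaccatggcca
F13a1: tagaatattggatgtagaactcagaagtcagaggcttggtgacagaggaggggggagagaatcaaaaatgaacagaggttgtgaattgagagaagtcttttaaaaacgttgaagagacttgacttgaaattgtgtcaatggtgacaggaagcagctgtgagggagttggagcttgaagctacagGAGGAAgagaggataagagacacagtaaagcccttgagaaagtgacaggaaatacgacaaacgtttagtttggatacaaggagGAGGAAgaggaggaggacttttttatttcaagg
Nr4a1: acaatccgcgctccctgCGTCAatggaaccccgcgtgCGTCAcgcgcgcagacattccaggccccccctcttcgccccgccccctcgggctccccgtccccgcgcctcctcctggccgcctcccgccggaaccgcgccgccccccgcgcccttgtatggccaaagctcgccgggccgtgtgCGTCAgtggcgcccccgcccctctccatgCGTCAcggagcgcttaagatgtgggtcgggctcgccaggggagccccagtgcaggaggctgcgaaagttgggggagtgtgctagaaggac
Of the 8 promoters searched, which left out Csf1r, 5 each held 2 matches to GAGGAA (Ly6c2, Plac8, F13a1, Ace and Treml4), letters found in 28.3% of the 27025 promoters of this length. Plac8 also held 3 matches to TGTGGT and Ly6c2 held 1, against 16.9% of promoters with at least 1. Nr4a1 held 4 matches to TGACG, found in 21.0% of promoters, and Chil3 and Ace each held 1 TATAAA, found in 14.2%. None of the 8 held TTNNGCAA (10.8% of promoters). No search string is contained in another. A match describes the letters and not a bound site.

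The classical genes were detected in most libraries, with wide spreads within groups. Ly6c2 encodes the Ly6C antigen itself. It was at 231, 643 and 14.4 TPM in WT-NCD, 213, 213 and 370 in WT-HFD, 442, 104 and 373 in Casp11-/- NCD and 117, 219 and 80.4 in Casp11-/- HFD. Its levels were the highest of the 9 genes, with a median of 219 TPM over the 11 libraries, and the diets overlapped within each genotype, as did the genotypes within each diet. Plac8, a small cysteine-rich protein abundant in Ly6C-high cells, was at 44.6, 70.9 and 3.40 TPM in WT-NCD, 34.6, 38.3 and 52.5 in WT-HFD, 65.1, 13.1 and 104 in Casp11-/- NCD and 20.9, 30.7 and 14.996 in Casp11-/- HFD. All 3 Casp11-/- HFD values were below all 3 WT-HFD values, as for 2.87% of the genes tested, while the genotypes on NCD and the diets within each genotype overlapped. Relative to Ptprc, Plac8 overlapped between the genotypes on HFD as well.

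Chil3 (Ym1, a chitinase-like protein), F13a1 (the A chain of coagulation factor XIII) and Vcan (the matrix proteoglycan versican) were each highest in WT-NCD 2. Chil3 was at 19.4, 291 and 8.65 TPM in WT-NCD, 19.3, 30.4 and 22.3 in WT-HFD, 27.2, 8.97 and 62.8 in Casp11-/- NCD and 10.1, 56.6 and 10.999 in Casp11-/- HFD. F13a1 was at 8.45, 155 and 2.73 TPM in WT-NCD, 5.83, 10.8 and 10.7 in WT-HFD, 23.4, 6.08 and 56.3 in Casp11-/- NCD and 4.88, 37.8 and 3.35 in Casp11-/- HFD. Vcan was near the floor in most mice: it was at the floor in WT-NCD 1 and 3 and at 31.2 TPM in WT-NCD 2, at 1.39, 2.93 and 2.17 TPM in WT-HFD, at 1.08 TPM, the floor and 5.60 TPM in Casp11-/- NCD, and at 1.37 TPM, 17.0 TPM and the floor in Casp11-/- HFD. In each group but WT-HFD a single mouse carried most of the signal of these 3 genes, replicate 2 in WT-NCD, replicate 3 in Casp11-/- NCD and replicate 2 in Casp11-/- HFD. Over the 11 libraries the highest level was 32.4 times the lowest for Chil3 and 46.4 times for F13a1, against 7.998 times for Ly6c2 and 7.98 times for Plac8. The summed level of 10 neutrophil genes was 4410 TPM in Casp11-/- HFD 2 and 116 to 1000 TPM in the other 10. Its part in these levels was not tested.

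The nonclassical genes were highest in Casp11-/- NCD 3. Nr4a1 encodes the orphan nuclear receptor that Ly6C-low monocytes need, and it is also an immediate early gene of many cell types. It was at 29.2, 71.6 and 1.86 TPM in WT-NCD, 14.0, 12.9 and 25.9 in WT-HFD, 22.8, 18.8 and 122 in Casp11-/- NCD and 9.17, 17.7 and 30.6 in Casp11-/- HFD. With WT-NCD 3 set aside, both WT-NCD values lay above all 3 WT-HFD values. Ace, angiotensin-converting enzyme, was at 8.46, 9.29 and 2.51 TPM in WT-NCD, 11.2, 9.07 and 26.9 in WT-HFD, 48.5, 6.94 and 136 in Casp11-/- NCD and 6.94, 16.4 and 12.2 in Casp11-/- HFD. The groups compared overlapped, and replicates 1 and 3 of Casp11-/- NCD were above every other library. Treml4, a receptor of the TREM family found on Ly6C-low monocytes, was at 4.06, 6.24 and 6.37 TPM in WT-NCD, 14.1, 8.14 and 15.7 in WT-HFD, 12.02, 3.56 and 69.5 in Casp11-/- NCD and 5.75, 11.5 and 8.96 in Casp11-/- HFD. In wild type mice its values on HFD lay wholly above those on NCD.

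Csf1r, shared by both monocyte types and by macrophages, was at 27.4, 65.2 and 3.43 TPM in WT-NCD, 66.9, 40.3 and 111 in WT-HFD, 64.9, 17.1 and 242 in Casp11-/- NCD and 35.1, 54.3 and 55.1 in Casp11-/- HFD. The groups compared overlapped. Its median over the 11 libraries, 55.1 TPM, was second to that of Ly6c2, followed by Plac8 at 38.3, Nr4a1 at 22.8, Chil3 at 22.3, Ace at 11.2, F13a1 at 10.7, Treml4 at 8.96 and Vcan at 1.39 TPM. The ranges of all neighbours in this order overlapped. Ly6c1, a near-identical neighbour of Ly6c2 that endothelial cells express, lay between the floor and 8.64 TPM in the 11 libraries, and Chil4, a near-identical copy of Chil3, was at the floor in all 11. How reads shared by such copies were assigned is not given in the sources used here, so the Ly6c2 and Chil3 levels are uncertain to that extent.

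**Figure D1:**
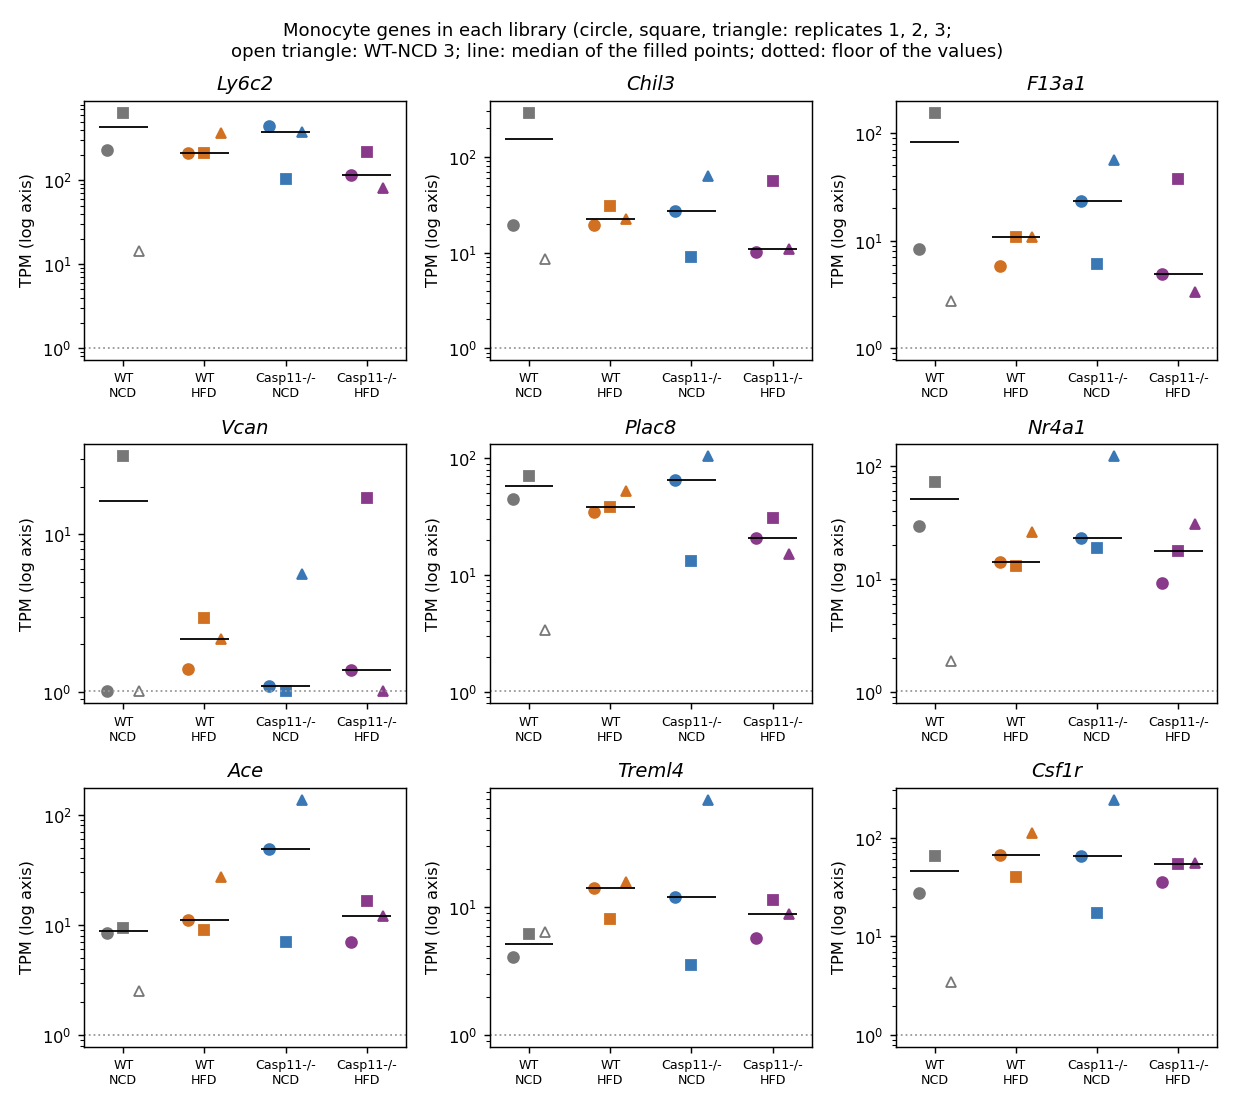
TPM of the 9 genes in each library on log axes, by group; circles, squares and triangles are replicates 1, 2 and 3, the open triangle is WT-NCD 3, lines are medians without it and the dotted line is the floor. Replicates of a group spread widely, with WT-NCD 2 highest for Ly6c2, Chil3, F13a1 and Vcan, and Casp11-/- NCD 3 highest for Plac8, Nr4a1, Ace, Treml4 and Csf1r.

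High-fat diet was compared with chow to ask whether monocyte transcripts rise in the liver with steatosis. In WT mice none of the 9 genes was called, with 12 libraries or without WT-NCD 3 (0.113% and 2.18% of all genes tested were called). With 12 libraries 5 of the 9 were higher on HFD, Csf1r by the most (log2 fold change 1.75 ± 1.05 SE, adjusted p 0.513). Without WT-NCD 3 all 5 classical genes were lower on HFD in WT mice, by -0.44 (Plac8) to -1.97 (F13a1) on the log2 scale, while Ace (0.61 ± 0.76), Csf1r (0.65 ± 0.73) and Treml4 (1.12 ± 0.73) were higher. The median of the 9 was -0.59, beside -0.27 over all genes tested. These signs depend on the scale. When each of the same 11 libraries was set to an equal protein-coding total, Ly6c2 (0.16) and Plac8 (0.29) were higher on HFD. Chil3, F13a1, Vcan and Nr4a1 stayed lower. The median of the 9 was then 0.16, beside 0.08 over the protein-coding genes, the only ones tested on that scale. F13a1 (-1.97 ± 0.93) and Nr4a1 (-1.40 ± 0.67) passed an unadjusted p of 0.05 (limma, 0.0458 and 0.0488) but not the adjusted one (0.320 and 0.326), as 15.2% of all genes passed the former. Setting aside WT-NCD 3 reversed the sign for Ly6c2 (0.96 to -0.59) and Plac8 (0.79 to -0.44). Setting aside WT-NCD 2 instead turned Chil3, F13a1 and Vcan from lower to higher on HFD (0.81, 0.73 and 0.63). Leaving out 1 mouse thus turned the direction of each of these 5 differences. Treml4 was the one gene of the 9 with every HFD value above every NCD value (1.98% of all genes with 12 libraries, 14.3% without WT-NCD 3), and its difference, 1.03 ± 0.80 or 1.12 ± 0.73, was not called. Nr4a1 was the one with every HFD value below every NCD value without WT-NCD 3, an ordering that 40.3% of all genes shared.

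In Casp11-/- mice 8 of the 9 genes were lower on HFD and none was called (0.0% of all genes with 12 libraries, 1.1% without WT-NCD 3). The differences ran from -0.41 (Chil3) to -1.63 (Ace) on the log2 scale, and Vcan was higher by 0.55 ± 0.77 without WT-NCD 3. Their median, -1.01, stood beside -0.51 over all genes tested without WT-NCD 3. Ace (-1.63 ± 0.68, a level 3.09 times lower) was the only one of the 9 at an unadjusted limma p under 0.05, with 27.0% of all genes. Its adjusted p was 0.153 there, 0.538 with 12 libraries, and 0.101 to 1.0 over the alternatives run. Without Casp11-/- NCD 3 the signs for Chil3 (0.24), Csf1r (0.48) and Treml4 (0.29) were reversed, and without Casp11-/- HFD 2 that of Vcan (-0.47).

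Averaged over the genotypes, none of the 9 was called either (0.554% of all genes with 12 libraries, 18.3% without WT-NCD 3). Nr4a1 came closest, at -1.24 ± 0.45 (95% interval -2.18 to -0.31, a level 2.37 times lower on HFD) and an adjusted p of 0.0551 without WT-NCD 3. With 12 libraries it was at -0.57 ± 0.77 (95% interval -2.26 to 1.12, 1.49 times lower) and an adjusted p of 0.602, and leaving out each library in turn gave -1.24 to -0.077. The alternatives run gave an adjusted p of 0.0551 to 0.948. F13a1 followed at -1.54 ± 0.63 and an adjusted p of 0.0806, against -0.98 ± 0.93 and 0.564 with 12 libraries and an adjusted p of 0.0806 to 0.869 over the alternatives. These were the 2 of 9 at an unadjusted p under 0.05, which 36.8% of all genes reached. Csf1r was at 0.096 ± 0.49 (95% interval -0.91 to 1.10) without WT-NCD 3 and at 0.64 ± 0.74 (-0.99 to 2.28) with 12 libraries. Genes that are not protein-coding took different shares of the total in the groups: protein-coding genes held 33.9 to 37.8% of the TPM in WT-NCD without replicate 3 and 15.7 to 25.2% in WT-HFD. In Casp11-/- mice the ranges overlapped, at 22.3 to 42.4% on NCD and 19.3 to 23.4% on HFD. Without WT-NCD 3, the 17950 genes of all types had a median of -0.39 in this averaged comparison, with 192 called higher and 3097 lower. When only the 12368 protein-coding genes were fitted, rescaled to a common total, the median was -0.05, with 916 called higher and 774 lower. These fits differ in the genes tested as well as in the scale, so the shift mixes both. None of the 9 was called on that scale. Vcan (0.064) and Ace (0.11) changed sign there, as did Chil3 (0.15) and Csf1r (0.12) in Casp11-/- mice and Ly6c2 and Plac8 in WT mice.

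**Figure D2:**
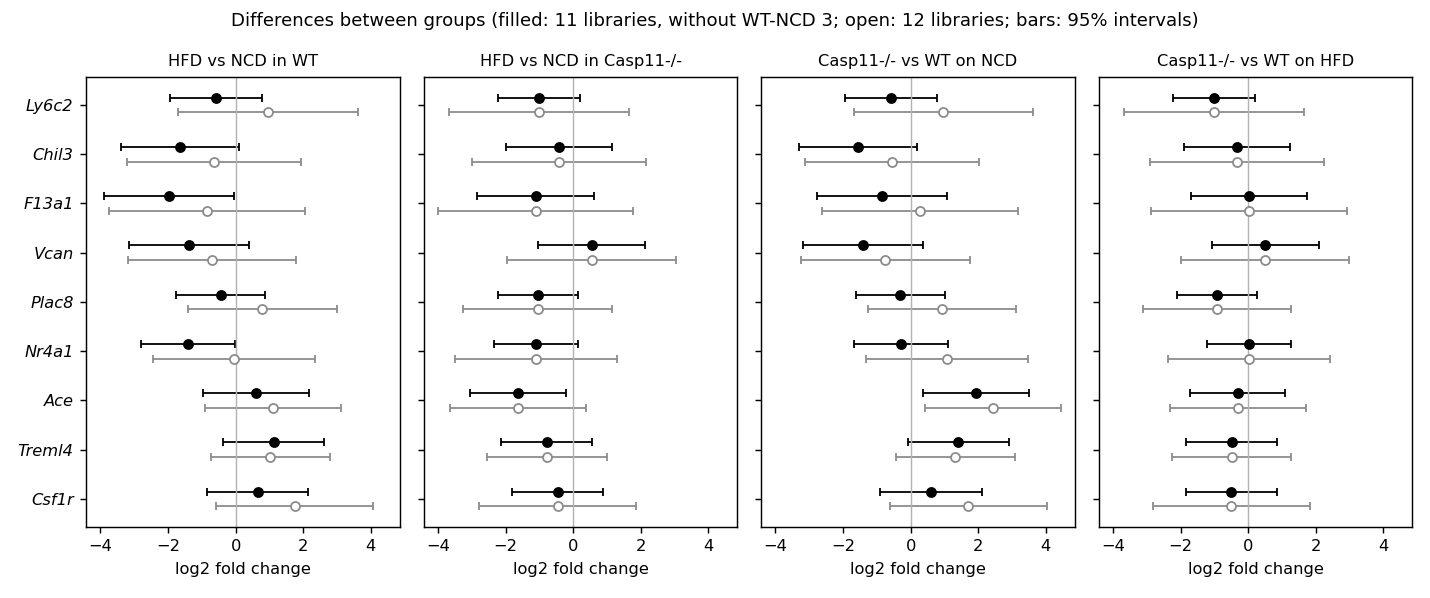
Log2 fold changes of the 9 genes with 95% intervals from limma in 4 comparisons, without WT-NCD 3 (filled) and with all 12 libraries (open). Nearly every interval spans 0. Without WT-NCD 3, those of F13a1 and Nr4a1 in WT mice and of Ace in Casp11-/- mice lie below it, while with all 12 libraries they span it. That of Ace on NCD lies above 0 in both sets. None of these passed the adjusted p.

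The genotypes were compared on each diet to ask whether caspase-11 deficiency alters the same transcripts. On NCD the levels of Ace were higher in Casp11-/- mice, by 2.43 ± 0.91 with 12 libraries and 1.94 ± 0.76 without WT-NCD 3 on the log2 scale (3.83 times). The unadjusted limma p was 0.0217 and 0.0180 and the adjusted p 0.553 and 1.0 (0.223 to 1.0 over the alternatives), so it was not called. Ace was the 1 of 9 at an unadjusted p under 0.05 without WT-NCD 3, beside 3.24% of all genes. None of the 9 was called on NCD (0.0% of all genes with 12 libraries and 0.0557% without WT-NCD 3). The other 8 ran from -0.74 to 1.71 with 12 libraries and from -1.56 to 1.41 without WT-NCD 3. The summed level of 8 hepatocyte genes, 7848 TPM in Casp11-/- NCD 3, 8413 in Casp11-/- NCD 1 and 22918 in Casp11-/- NCD 2, was lowest where Ace was highest. Its part in the Ace levels was not tested.

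On HFD none of the 9 was called between the genotypes (0.0% of all genes in both sets of libraries). Differences ran from -1.0004 (Ly6c2) to 0.51 (Vcan). The interval for Ly6c2 without WT-NCD 3 was -2.22 to 0.22 and that for Plac8, whose TPM did not overlap, -2.10 to 0.26. The interaction of diet and genotype was not called for any of the 9 (0.0% of all genes with 12 libraries, 0.00557% without WT-NCD 3). Ace had an interaction of -2.74 ± 1.29 with 12 libraries and -2.24 ± 1.02 without WT-NCD 3, where it was the 1 of 9 at an unadjusted p under 0.05 (limma, 0.0385, adjusted p 1.0), beside 2.6% of all genes. The interaction of the other 8 ran from -1.90 to 1.92 without WT-NCD 3.

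Ratios of 2 genes within a library are not changed by rescaling it, and they are given here as a description of the 11 libraries. Ly6c2 was at 8.44 and 9.86 times the Csf1r level in WT-NCD, 3.19, 5.28 and 3.33 times in WT-HFD, 6.81, 6.05 and 1.54 times in Casp11-/- NCD and 3.34, 4.04 and 1.46 times in Casp11-/- HFD. In WT mice the HFD values lay below the NCD values, as did the ratio to Csf1r of 50.4% of all genes, and in Casp11-/- mice replicate 3 on NCD lay among the HFD values. Treml4 was at 2.05 and 3.08% of the Ptprc level in WT-NCD and 9.57, 7.22 and 6.61% in WT-HFD, again without overlap. The same held for Csf1r, at 13.8 and 32.2% of Ptprc in WT-NCD and 45.4, 35.7 and 46.9% in WT-HFD, and for Ace, at 4.28 and 4.58% and then 7.60, 8.05 and 11.4%, an ordering that 18.7% of all genes shared relative to Ptprc. Nr4a1 was separated in the opposite direction, at 14.8 and 35.3% of Ptprc in WT-NCD and 9.49, 11.4 and 10.9% in WT-HFD, as were 33.5% of all genes. The other 5 genes overlapped between the diets in WT mice on this scale. In Casp11-/- mice the ratios of Treml4, Csf1r and Ace overlapped between diets, and those on NCD were the wider, Treml4 at 3.09 to 13.3%, Csf1r at 14.9 to 46.2% and Ace at 6.02 to 26.1% against 6.05 to 7.47%, 28.6 to 45.9% and 8.21 to 10.1% on HFD. Ly6c2 relative to Ptprc was at 117 to 317% in WT-NCD, 145 to 189% in WT-HFD, 71.4 to 182% in Casp11-/- NCD and 67.0 to 139% in Casp11-/- HFD. It overlapped between the diets in both genotypes and between the genotypes on NCD. It did not overlap between the genotypes on HFD, but the share of all genes separated in this way was not computed, so this ordering cannot be weighed. Plac8 relative to Ptprc did overlap there, at 22.2 to 34.0% in WT-HFD and 12.5 to 24.7% in Casp11-/- HFD.

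**Figure D3:**
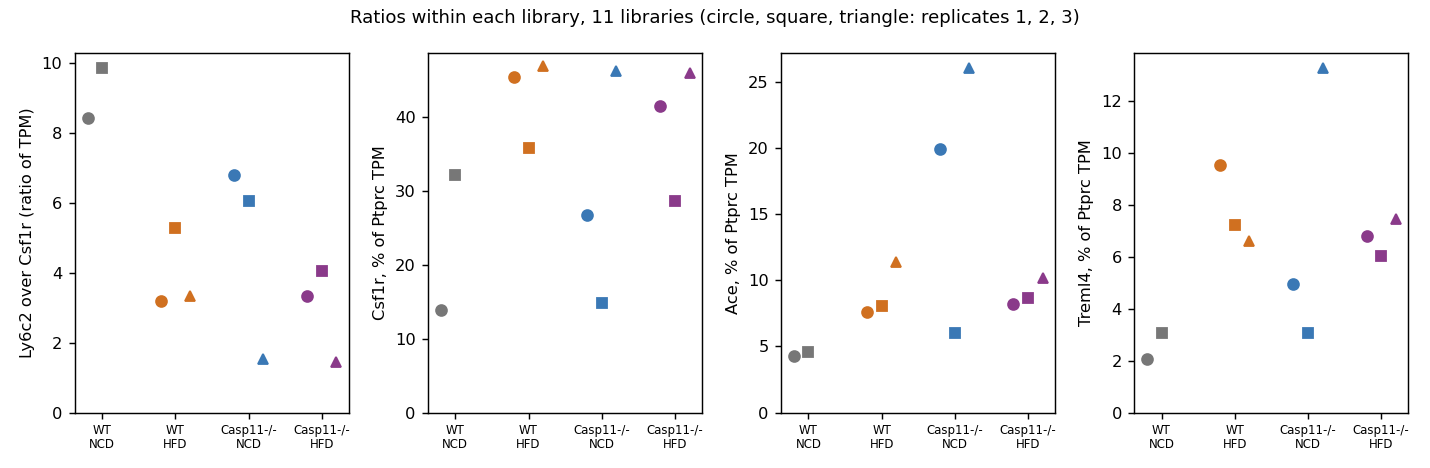
Ratios within each of the 11 libraries by group: Ly6c2 over Csf1r in TPM, and Csf1r, Ace and Treml4 as percentages of Ptprc, on axes that start at 0. In WT mice the 2 NCD points lie above the 3 HFD points for Ly6c2 over Csf1r and below them for the other 3 ratios, while the Casp11-/- groups overlap.

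Over the 11 libraries, pairs of genes within a monocyte subset had higher median correlations than pairs across the subsets. These correlations of log2(TPM + 1) describe 11 points that share library composition and unknown depth, so no test is attached. The 10 pairs of classical genes correlated at 0.43 to 0.96 with a median of 0.81, highest for Chil3 with F13a1 (0.96) and for Ly6c2 with Plac8 (0.92). The 3 nonclassical pairs lay at 0.54 to 0.90, Ace with Treml4 highest, and Csf1r correlated at 0.94 with Treml4 and 0.84 with Ace. The 15 pairs across the subsets had a lower median, 0.46, but their range of 0.11 to 0.69 overlapped those within the subsets. Nr4a1 correlated at 0.54 with Treml4 and 0.61 with Ace, and at 0.46 (Vcan) to 0.68 (F13a1) with the 5 classical genes. Nr4a1 correlated at 0.87 with the mean of 12 immediate early genes and at 0.76 with the mean of 12 further nonclassical genes, while Ace and Treml4 correlated at 0.39 and 0.23 with the former and at 0.94 and 0.89 with the latter. Nr4a1 was also at 0.78 with the mean of 10 further classical genes, 0.85 with monocyte factors and CSF1R ligands and 0.79 with B cell genes. Plac8 was at 0.84 with the further nonclassical genes, 0.73 with the further classical ones and 0.86 with leukocyte genes. Ly6c2 was at 0.74 with the further classical genes, 0.83 with leukocyte, 0.79 with plasmacytoid dendritic cell and 0.72 with T cell genes. Chil3, F13a1 and Vcan were at 0.93, 0.93 and 0.86 with the further classical genes and at 0.63, 0.74 and 0.37 with leukocyte genes. The part of other leukocytes in the Ly6c2 and Plac8 levels was not tested. With the mean of the hepatocyte genes Vcan correlated at -0.0018, and the other 8 at -0.24 (Chil3) to -0.82 (Ace).

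**Figure D4:**
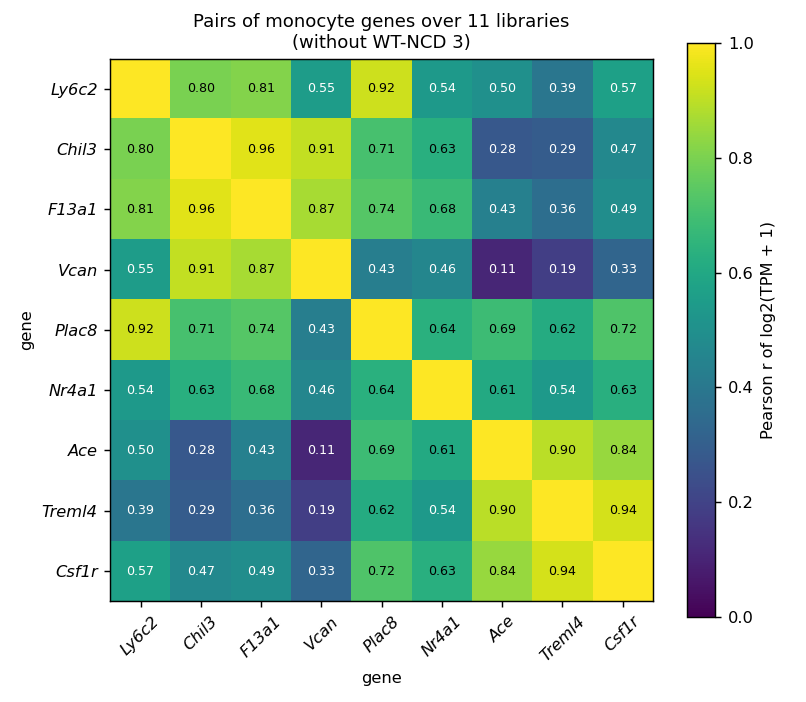
Pearson correlation of log2(TPM + 1) for each pair of the 9 genes over the 11 libraries, from 0 (dark) to 1 (light). The block of Ly6c2, Chil3, F13a1, Vcan and Plac8 has a median of 0.81, and Ace, Treml4 and Csf1r form a second bright block.

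Among 9354 protein-coding genes above the floor in all 11 libraries, the 3 genes most like each were taken by Pearson correlation. Ly6c2 was closest to Plac8, Clec10a and Ms4a6b (0.92, 0.92 and 0.91), and Plac8 to Ms4a4c, Rassf4 and Ms4a6b (0.96 each). Chil3 was closest to F13a1, Ms4a4a and Clec4a2 (0.96, 0.95 and 0.93) and F13a1 to Emb, Chil3 and Ms4a4a (0.96, 0.96 and 0.95). Csf1r was closest to Slc11a1, Pilrb1 and Vwa5a (0.97 each) and Treml4 to Pilrb2, Pilrb1 and Zfp971 (0.97, 0.97 and 0.96). Nr4a1 was closest to Ccnl1, Tspoap1 and Klf6 (0.99, 0.97 and 0.96) and Ace to 5730455P16Rik, Grk3 and Zfp654 (0.95 each). Vcan was at the floor in 3 of the 11 libraries and was not ranked.

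Further genes of the same cells gave a few calls, each without WT-NCD 3 and each lower on HFD, as 2.04% of all genes were called in WT mice, 0.986% in Casp11-/- mice and 17.3% in the averaged comparison. Of 10 other classical monocyte genes, Thbs1, the adhesive glycoprotein thrombospondin 1, fell in WT mice (-3.11 ± 0.82, adjusted p 0.0419), where WT-NCD 1 and 2 stood at 11.7 and 169 TPM and WT-HFD at 4.30, 3.59 and 5.43. Lyz2, the most abundant of this list with a mean of 1210 TPM, was not called. Of 12 other nonclassical genes, Spn (CD43, also on lymphocytes) fell in Casp11-/- mice (limma, -2.13 ± 0.53, adjusted p 0.0491). Its values went from 105, 23.7 and 100 TPM to 9.79, 15.8 and 16.5 with no overlap, as for 2952 of the 17950 genes tested. Spn also fell in the averaged comparison (-1.92 ± 0.40, adjusted p 0.00333), as did the transcription factor genes Cebpb (-1.54 ± 0.51, adjusted p 0.0396) and Pou2f2 (-1.43 ± 0.44, adjusted p 0.0323). Cebpb was the most abundant of the 12, at a mean of 117 TPM. Of 10 monocyte factors and CSF1R ligands 8 were tested, and Irf8, needed for monocyte and dendritic cell development, fell in the averaged comparison (-1.15 ± 0.39, adjusted p 0.0432), whereas Spi1, which encodes PU.1 and had the highest mean at 84.7 TPM, was not called. Il34, a second CSF1R ligand, was at the floor in all 11 libraries and was not tested. In the averaged comparison 3 of 12 nonclassical genes and 1 of 8 factors and ligands were thus called lower, counts near the 17.3% of all genes. With 12 libraries no gene of these 3 lists was called in any comparison.

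Markers of other cell types gave more calls by diet. In the averaged comparison without WT-NCD 3, 9 of 10 Kupffer cell genes were called higher on HFD (C1qa, C1qb, Cd5l, Clec1b, Clec4f, Folr2, Marco, Timd4 and Vsig4), and 4 of 8 endothelial genes were (Cdh5, Clec4g, Kdr and Tek), beside 1.07% of all genes. Called lower, beside the same 17.3%, were 8 of 8 B cell genes, 7 of 8 NK cell genes, 5 of 8 T cell genes, 4 of 12 immediate early genes (Btg2, Ier2, Jun and Junb), 3 of 5 leukocyte genes (Cd52, Coro1a and Laptm5), 1 of 8 plasmacytoid dendritic cell genes (Ly6d) and 1 of 7 stellate cell genes tested (Reln). No neutrophil or hepatocyte gene was called of 10 and 8. With 12 libraries only C1qa, C1qb, Cd5l, Clec4f and Vsig4 of all these lists were called in that comparison. Summed levels of the Kupffer cell genes were 53.2 to 143 TPM on NCD and 255 to 829 on HFD, and those of the immediate early genes were 623 to 2795 and 309 to 1152. The part of these cell types in the levels of Csf1r and Nr4a1, which Kupffer cells and lymphocytes can also express, was not tested.

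**Figure D5:**
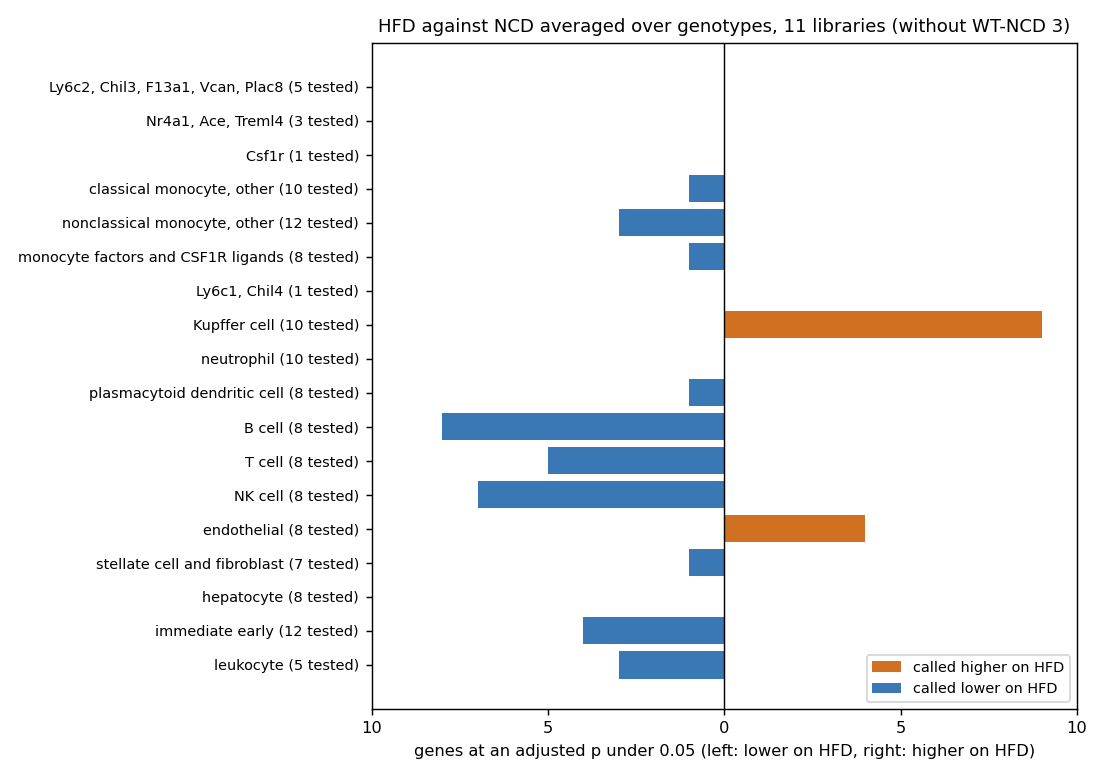
Number of genes at an adjusted p under 0.05 (limma, HFD against NCD averaged over genotypes, without WT-NCD 3), lower on HFD to the left and higher to the right, for the 9 monocyte genes and 15 further lists. None of the 9 genes is called, beside 9 of 10 Kupffer cell genes higher and 8 of 8 B cell genes lower.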

How the data were processed

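RNA of the immune cell fraction of 12 mouse livers was analysed. The authors made stranded, random-primed total RNA libraries, sequenced them single-end, aligned them with STAR to mm10 (GRCm38.p6) and used Qlucore Omics Explorer to obtain TPM. These TPM, on a linear scale, are the deposited score values, with low values at a floor of 1.01; 6 rows with no gene name were left out. No counts are given, so depth and counting error are unknown. Replicates were separate libraries of different mice, and no 2 libraries were identical.

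Groups were compared on log2(TPM + 1) with limma 3.58.1 in R 4.3.3, using 4 group means, a spread allowed to vary with the mean level, and the genes that exceeded the floor in 3 or more libraries (19498, or 17950 without WT-NCD 3). Fold changes understate those of low genes. The p-values, two-sided, were adjusted over every gene tested (Benjamini-Hochberg), and calls were made under 0.05. Tested on simulated data, the fit called most but not all of the changed genes, with little bias in their fold changes. How often it would call differences as small as most of those reported here, in libraries like these, was not tested. The absence of a call therefore does not show that a gene was unchanged. Python 3.11.15 with pandas 2.3.3 and matplotlib 3.10.9 gave descriptions and figures. Gene symbols were matched to RefSeq for gene types and promoters.

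The 9 genes and the companion lists were chosen with earlier results of these data known. Named genes are the 9, Casp4, Ly6c1 and Chil4, the genes most like each, and in the monocyte lists the most abundant gene and those called. A called gene of these lists is not reported here. Alternatives were other filters, pseudocount 0.1, the spread of the groups compared, a replicate block, protein-coding genes alone and rescaled, and each library left out in turn. Replicate numbers were not taken as pairs: deviations from group means correlated at -0.64 to 0.47, over 0.1 in 7 of 18 pairs. WT-NCD 3 was included here. Between the groups other than WT-NCD, the libraries numbered 3 correlated at 0.26 to 0.47, so whether numbers mark a pairing or batch was not settled.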

Additional observations from a re-analysis of the deposited data

How the results depend on the processing

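With all 12 libraries as the base, none of the 9 monocyte genes was called in any comparison under any alternative run. Single values were followed for 29 results. These were the diet comparisons of the 9 genes, and Ace between genotypes on NCD and in the interaction (lowest adjusted p in limma 0.0551). Of 433 values of these results under an alternative, 387 kept their direction and 46 reversed. Other genotype and interaction results were not in this count, and their directions moved as well. On NCD 7 of the 9 genes were higher in Casp11-/- mice with 12 libraries, and 3 without WT-NCD 3. Where a value below moved, the cause was not tested. The files hold no read counts, so depth is unknown and its limit on low genes such as Vcan cannot be stated.

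Calls over all genes tested moved more, and the rescaled fits tested protein-coding genes only. In WT mice 22 genes were called between the diets, against 72 with genes above the floor in every library, 0 with the spread of the groups compared, 39 with pseudocount 0.1, 12 with protein-coding genes rescaled and 101 with these rescaled without WT-NCD 3. In Casp11-/- mice 0 were called, against 2 with genes above the floor in every library, 300 with the spread of the groups compared, 6 rescaled and 435 rescaled without WT-NCD 3. Averaged over the genotypes 108 were called, against 601 with genes above the floor in every library, 446 rescaled and 1690 rescaled without WT-NCD 3. The genotypes on HFD gave 15 calls with the spread of the groups compared, and the interaction 1 with genes above the floor in every library, against 0 in each. Leaving out 1 library at a time gave 0 to 391 calls in WT, 0 to 198 in Casp11-/-, 1 to 3289 averaged, 0 to 10 between genotypes on NCD and 0 to 1 for the interaction. The highest of each range came without WT-NCD 3, and the averaged count was 1454 without Casp11-/- NCD 2, 89 without Casp11-/- NCD 1 and 1 to 22 without any of the other 9. In WT mice it was 1 without WT-HFD 2 and 0 without any of the other 4, and in Casp11-/- mice 1 without Casp11-/- NCD 2. With replicate number as a block, the diet calls were 0 in WT and 16 averaged. With WT-NCD 3 included, 1 of 12 libraries correlated best with its own number, which does not settle whether the numbers mark a pairing.

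With pseudocount 0.1 Nr4a1 in WT mice turned to 0.070 (log2 fold change, HFD over NCD). With protein-coding genes rescaled it turned to 0.31, in Casp11-/- mice Chil3 turned to 0.15 and Csf1r to 0.12 (also without WT-NCD 3), and in the averaged comparison Ly6c2 turned to 0.43, Vcan to 0.25, Plac8 to 0.33 and Ace to 0.17 (without WT-NCD 3, Vcan 0.064 and Ace 0.11). With 1 library left out at a time, the differences in WT mice ran from -0.59 to 2.10 for Ly6c2, -1.65 to 0.81 for Chil3, -1.97 to 0.73 for F13a1, -1.38 to 0.63 for Vcan, -0.44 to 1.57 for Plac8 and -1.40 to 0.93 for Nr4a1. In Casp11-/- mice they ran from -1.18 to 0.24 for Chil3, -0.47 to 1.11 for Vcan, -1.39 to 0.48 for Csf1r and -1.68 to 0.29 for Treml4. Averaged, they ran from -0.80 to 0.55 for Ly6c2, -1.03 to 0.20 for Chil3, -0.59 to 0.59 for Vcan, -0.74 to 0.26 for Plac8, -0.82 to 0.20 for Ace and -0.33 to 0.66 for Treml4.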
